A study of Homo sapiens with 8 samples.

Results

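The binding sites described here are the genomic regions at which the progesterone receptor (PR) was called by ChIP-seq in the absence of hormone, in 2 derivatives of T47D, an established human breast cancer line. The A1-2 derivative is labelled as a mammary epithelial line that expresses both the glucocorticoid receptor (GR) and PR, and MTVL WT cells served the study as the control line. Both lines were grown in hormone-stripped serum and then starved of serum, and the untreated cells of each were harvested at time 0 and precipitated with the same PR antibody (H-190). The labels state that no agent was given to the A1-2 cells. For the MTVL cells they give no agent and call the cells unstimulated. Both deposited MTVL lists are marked as new in their names, with no word on what was renewed, and whether that bears on their peak widths was not tested. As background, A1-2 cells were derived from T47D by introducing GR, and MTVL cells carry an integrated luciferase reporter driven by the mouse mammary tumour virus promoter. Whether either line is a single clone is not stated in the labels, and cell identity cannot be checked from peak lists. After removal of peaks outside chromosomes 1 to 22 and X and of peaks at an A1-2 input peak, 630 untreated PR peaks were counted in A1-2 cells and 219 in MTVL cells, together 849 of the 93493 peaks of all 8 lists of the study.

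A peak is a stretch of the hg19 genome build that the peak caller found enriched for precipitated DNA. An untreated PR peak is called shared where it overlapped, by 1 bp or more, an untreated PR peak of the other line, and line-specific where it did not. The further lists used to characterise these peaks, 5 in all, are PR peaks after 60 min of 10 nM R5020, a synthetic progestin, in each line, and GR peaks of A1-2 cells without hormone, after 60 min of 10 nM dexamethasone (Dex), a synthetic glucocorticoid, and after 60 min of 10 nM R5020. With 1 library per condition there was no replicate spread against which to test a difference, so p-values are absent. The exact 95% intervals cover counting error only, and neighbouring peaks are not independent of each other.

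PR is a member of the steroid receptor family of transcription factors. Without progestin most of it is held by chaperone proteins such as HSP90. Hormone binding releases it to form dimers that bind hormone response elements in DNA. GR is a close relative that recognises very similar DNA elements, and dexamethasone activates GR. A PR peak in cells without hormone is therefore a region where DNA was recovered by the PR antibody before any ligand was added.

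A minority of the hormone-free sites of each line was found in the other. Of the 630 A1-2 peaks, 61 (9.68%, 95% interval 7.49 to 12.3) overlapped an MTVL peak, and they did so at 39 of the 219 MTVL peaks (17.8%, 13 to 23.5). With the A1-2 list cut to its 219 highest-scoring peaks, 56 of them (25.6%) were shared, and with midpoints required within 200 bp 4.76% of the whole A1-2 list was. Merging both lists gave 788 regions, of which 569 (72.2%) came from A1-2 cells alone, 180 (22.8%) from MTVL cells alone and 39 (4.95%) from both. With R5020 the overlap of the same 2 lines was far higher: 82.7% of the A1-2 PR peaks lay at an MTVL PR peak and 53.8% of the MTVL peaks lay at an A1-2 peak. The untreated lists are short beside the R5020 lists of 28262 and 43070 peaks. Only 1.33% of the A1-2 R5020 peaks were at an untreated A1-2 peak, and 0.56% of the MTVL R5020 peaks were at an untreated MTVL peak.

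Hormone-free peaks differed in width between the lines. Widths in the A1-2 list ran from 81 to 2095 bp with a median of 248 bp (231 to 258), and in the MTVL list from 848 to 7967 bp with a median of 1242 bp (1163 to 1318). The upper quartile of the A1-2 widths was 354 bp, well under the narrowest MTVL peak. The 219 MTVL peaks therefore covered more of the genome (343 kb) than the 630 A1-2 peaks (183 kb). After R5020 the widths of the lines were close, with medians of 645 bp in A1-2 and 671 bp in MTVL cells. The untreated GR list of A1-2 cells had a median width of 226 bp, near that of the untreated PR list of the same cells. Other A1-2 lists were wider, with medians of 978 bp for GR after R5020 and 1833.5 bp for the input. Neither read depth nor peak-caller settings were given in the sources used here, and their part in the widths was not tested.

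Each peak carries the score that the authors deposited, taken as -10 times the log10 of the p of the peak, with a lower limit of 100. Peaks were ranked and filtered by this value within each list, and levels of the 2 libraries are not compared by it. The A1-2 scores had a median of 148.3 and a maximum of 2866.1, and the MTVL scores a median of 143.3 and a maximum of 511.3. Wider peaks had higher scores in the A1-2 list (Spearman's rho 0.732 across 630 peaks of 1 library), and the rho in the MTVL list was 0.306 across 219 peaks.

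**Figure D1:**
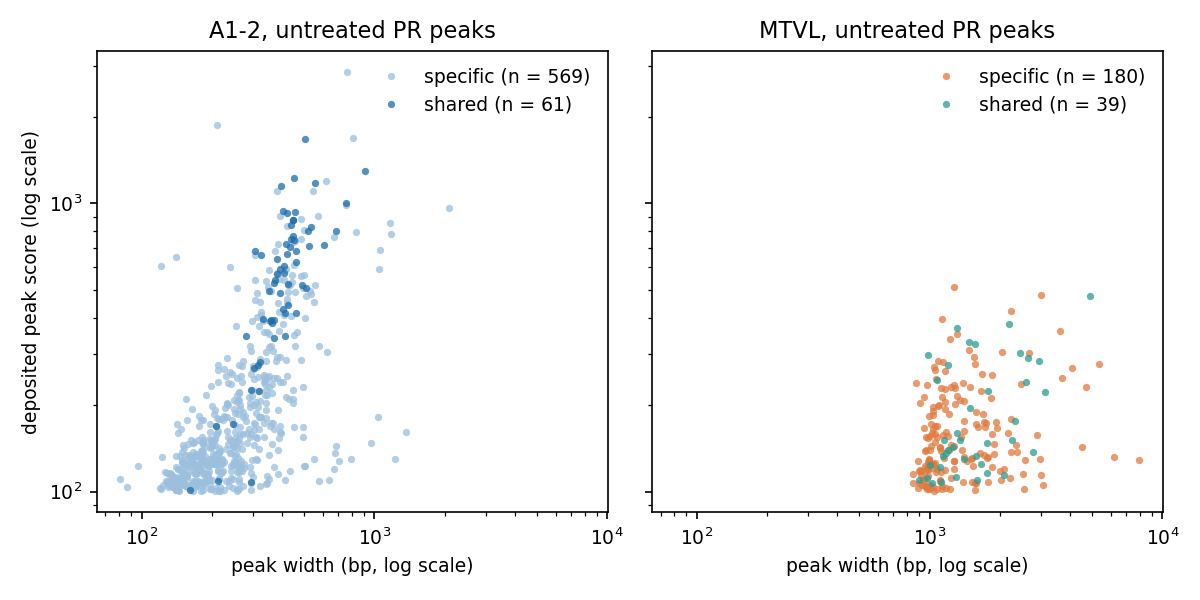
Width (bp, log scale) against deposited score (log scale) of each untreated PR peak in A1-2 (left) and MTVL cells (right), coloured by whether the peak overlapped one of the other line. The shared A1-2 peaks, with a median score of 573.0, sit in the upper part of their list, while shared and specific MTVL peaks are mixed, and no MTVL peak is narrower than 848 bp.

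The A1-2 peaks that MTVL cells shared were among the strongest of the A1-2 list. Their median score was 573.0 (487.6 to 683.8), against 139.1 (133.3 to 147.6) for A1-2-specific peaks, and their median width was 411 bp (381 to 435) against 230 bp (215 to 245). A score of 200 or more was reached by 56 of the 61 shared peaks (91.8%) and by 160 of the 569 specific ones (28.1%). With the A1-2 list cut by score into sets of 63 peaks, 30 of the highest 63 (47.6%) and 18 of the next 63 (28.6%) were shared. Among peaks scoring under 120 the counts were 3 of 61 shared and 174 of 569 specific peaks.

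In the MTVL list the shared peaks did not stand apart in the same way. Shared MTVL peaks had a median score of 150.8 (132.5 to 224.2) and specific ones of 141.9 (132.2 to 156.5), so the intervals overlap. Their median widths were 1474 bp (1199 to 1764) and 1187 bp (1127 to 1279), and these intervals overlap as well. Of the 22 highest-scoring MTVL peaks 9 were shared (40.9%, 20.7 to 63.6). Of the 22 with scores from 107.4 to 114.8, near the lower limit, 6 were shared (27.3%, 10.7 to 50.2), and no steady trend ran between these. Across the 39 shared sites the MTVL score and the best A1-2 score were nearly unrelated (rho 0.1).

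At shared sites the narrow A1-2 peaks lay inside the wide MTVL peaks. Of the 61 A1-2 peaks, 60 were wholly inside an MTVL peak. The remaining one, at chr6:26553581-26553885, crossed the left edge of its MTVL peak at chr6:26553734-26555027. A single A1-2 peak was found in 23 of the 39 MTVL peaks, while 11 held 2, 4 held 3 and 1 held 4. MTVL peaks with 1 A1-2 peak had a median width of 1195 bp and those with 2 or more had 2223.5 bp, and the rho of width and number of A1-2 peaks was 0.721 over 39 sites, where a wider peak also has more room. The A1-2 peaks inside 1 MTVL peak were 30 to 985 bp apart (median 280 bp).

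Where an MTVL peak held a single A1-2 peak, the midpoints of both were close, with a median distance of 47 bp and a largest distance of 529 bp. The A1-2 peaks covered a median of 39.8% of the MTVL peak, from 8.64% to 57.7%. At these 39 sites the MTVL peak was 1.73 to 11.6 times as wide as the strongest A1-2 peak (median 3.4). After R5020 both lines had a peak at all 39 sites, with median widths of 1159 bp in A1-2 and 1076 bp in MTVL cells. The untreated A1-2 peak was narrower than the R5020 peak of its own line at 39 of 39 sites, and the untreated MTVL peak was wider than that of its own line at 37 of 39.

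**Figure D2:**
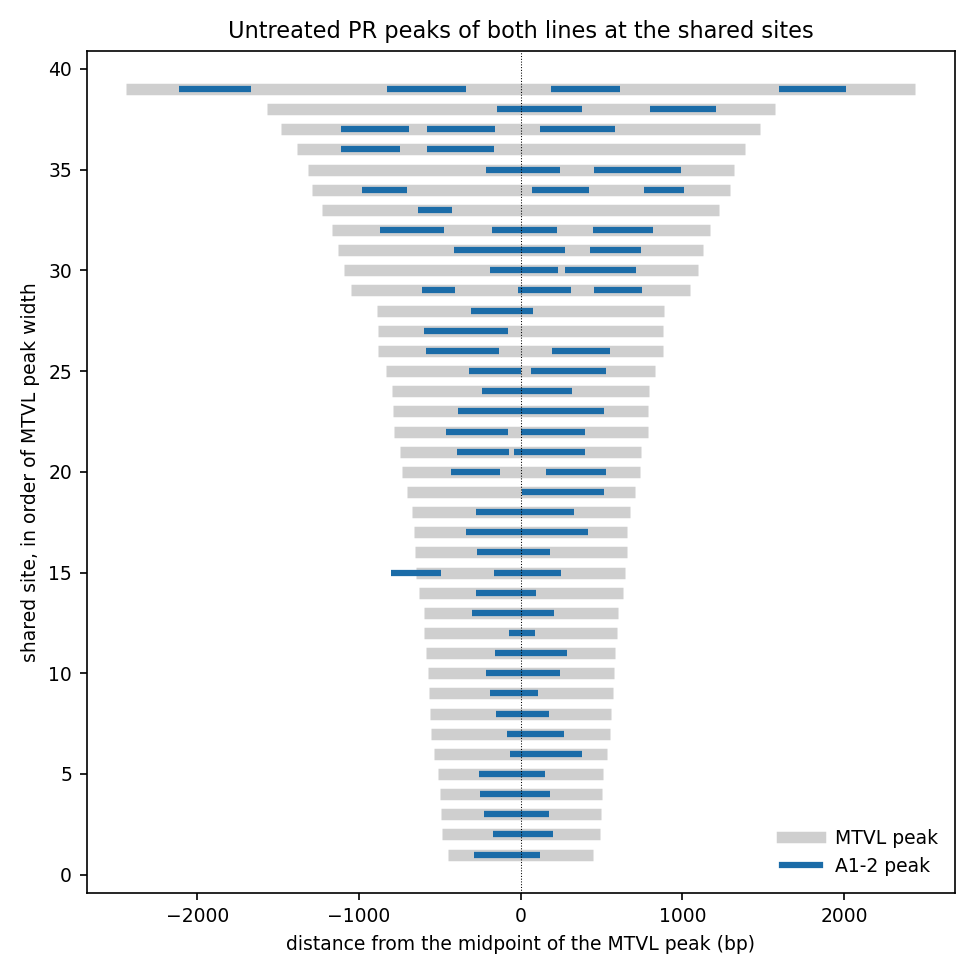
The 39 shared sites, each drawn around the midpoint of its MTVL peak (grey) with the A1-2 peaks in it (blue), in order of MTVL peak width, with distance in bp on the horizontal axis. At 23 sites there is 1 A1-2 peak, mostly near the centre but up to 529 bp from it by midpoint. The wider MTVL peaks toward the top mostly hold 2 to 4 A1-2 peaks.

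The highest-scoring shared A1-2 peak was at chr16:22206810-22207314 (505 bp, score 1679.9), inside an MTVL peak of 1199 bp with a score of 139.7. The next was at chr11:59317927-59318834 (score 1296.1). Its MTVL partner, at chr11:59317530-59319104, scored 132.5, and a neighbouring shared MTVL peak ended at 59329090. The next 3 were at chr15:89878126-89878575 (1224.1, MTVL partner 160.2), chr8:124169220-124169773 (1177.4, partner 109.8) and chr6:26521295-26521690 (1146.6, partner 298.8). The partners of the first 4 scored from 109.8 to 160.2 in the MTVL list, whose median was 143.3.

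Ranked by MTVL score, the first shared site was the widest, chr1:145395026-145399905 (4880 bp, score 477.2), which held 4 A1-2 peaks with scores from 519.4 to 771.2. It was followed by chr1:249166949-249169135 (381.2, best A1-2 score 928.0), chr6:27869861-27871175 (370.4, A1-2 1007.7), chr19:4723618-4725091 (330.7, A1-2 682.0) and chr1:204475219-204476788 (325.6, A1-2 639.8). The next widest shared sites were chr1:167682209-167685350 (3142 bp, 2 A1-2 peaks) and chr17:73029428-73032388 (2961 bp, 3 A1-2 peaks). The narrowest were chr6:28863704-28864604 (901 bp), chrX:18692587-18693562 (976 bp) and chr6:26521024-26522012 (989 bp), and each held 1 A1-2 peak.

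The overlap rule left 1 near miss within 1 kb. An A1-2-specific peak at chr17:8124129-8124342 (score 275.5) ended just before the shared MTVL peak at chr17:8124388-8126723, which held 3 other A1-2 peaks. Within 100 kb of an MTVL peak lay 36 of the 569 A1-2-specific peaks (6.33%), and 8 of the 180 MTVL-specific peaks (4.44%) lay as near to an A1-2 peak. The line-specific peaks were thus mostly far from the other list, at median distances of 6.14 Mb and 4.8 Mb.

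The 3 kinds of hormone-free peak (shared, A1-2-specific and MTVL-specific) differed in what the other libraries showed at the same places. MTVL-specific peaks were nearly all at PR peaks after R5020, 179 of 180 in MTVL cells (99.4%) and 165 of 180 in A1-2 cells (91.7%, 86.6 to 95.3). A1-2-specific peaks were at R5020 PR peaks of their own line in 425 of 569 cases (74.7%, 70.9 to 78.2) but at MTVL R5020 peaks in only 142 (25%, 21.5 to 28.7). With midpoints required within 200 bp, which weighs wide and narrow peaks differently, the share at A1-2 R5020 peaks was 42.2% for A1-2-specific and 69.3% for MTVL-specific peaks. The share at MTVL R5020 peaks is far under the 82.7% of all A1-2 R5020 peaks that had an MTVL R5020 peak. The 2 are not like for like. Of the 425 A1-2-specific peaks at an A1-2 R5020 peak, 122 were also at an MTVL one. The class is narrower than the A1-2 R5020 list (medians of 230 and 645 bp), and it leaves out peaks at an MTVL untreated peak. Shared A1-2 peaks were at R5020 peaks of A1-2 in 57 of 61 cases (93.4%) and of MTVL in 59 of 61 (96.7%). The class rule nearly sets the MTVL value, because 218 of all 219 untreated MTVL peaks (99.5%) were at an MTVL R5020 peak.

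The 4 shared A1-2 peaks without an A1-2 R5020 peak were at chr5:180614749-180614956, chr6:26553581-26553885, chr17:8022421-8022700 and chr17:8024165-8024412, with scores from 169.5 to 345.6. Each lay in an MTVL peak that held another A1-2 peak with an R5020 peak. These positions were picked out after their values were seen. The one MTVL peak without an R5020 peak of its own line was also the widest, chr3:169809923-169817889 (7967 bp, score 128.9).

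GR peaks divided the classes further. No shared peak was at a GR peak of untreated A1-2 cells, since 0 of 61 A1-2 peaks and 0 of 39 MTVL peaks had one. Likewise 0 of 180 MTVL-specific peaks had an untreated GR peak. Taken as 3 counts of the total, these zeros allow shares of up to 4.92%, 7.69% and 1.67%, and the exact 95% intervals reach 5.87%, 9.03% and 2.03%. By contrast 154 of the 569 A1-2-specific PR peaks (27.1%, 23.5 to 30.9) coincided with an untreated GR peak, and seen from the other side 151 of 394 untreated GR peaks (38.3%) were at an untreated PR peak of A1-2 cells. Of the A1-2 PR peaks after R5020 only 0.835% were at an untreated GR peak. The PR and GR antibodies are different reagents used on the same A1-2 cells, and untreated GR was not analysed here in MTVL cells.

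After Dex, GR peaks were at 335 of 569 A1-2-specific peaks (58.9%, 54.7 to 63) and at 136 of 180 MTVL-specific peaks (75.6%, 68.6 to 81.6), but at 8 of 39 shared sites (20.5%, 9.3 to 36.5). For scale, 48.2% of the A1-2 and 29.5% of the MTVL R5020 PR peaks were at a GR Dex peak. Among the highest-scoring 10% of the MTVL R5020 peaks the share was 75.4%, next to that of the MTVL-specific untreated peaks. The A1-2-specific share differed with clustering. It was 81.8% (198 of 242) in the runs of close peaks defined below and 41.9% (137 of 327) outside them, under the 48.2%. GR peaks after R5020 were at 244 of the A1-2-specific peaks (42.9%), at 15 of the MTVL-specific peaks (8.33%) and at 0 of the shared peaks. The share of all R5020 PR peaks at a GR peak after R5020 was not counted.

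The combination of an R5020 PR peak in both lines with no GR peak in any of the 3 GR lists described 31 of 39 shared MTVL peaks (79.5%, 63.5 to 90.7) and 48 of 61 shared A1-2 peaks (78.7%, 66.3 to 88.1). It described 71 of 569 A1-2-specific peaks (12.5%) and 29 of 180 MTVL-specific peaks (16.1%). The share of all R5020 PR peaks with this combination was not counted, so these values compare the classes only with each other. For shared peaks the class rule nearly sets the MTVL R5020 part of the combination, which raises their share. The 71 A1-2-specific peaks of this kind were wider and stronger than the rest of their class, with a median width of 335 bp and a median score of 409.0. At the other end, 69 A1-2-specific peaks (12.1%) were at none of the 5 lists and had a median score of 124.9. One of those scored 739.3, at chr16:22309601-22310057, and was singled out after its score was seen.

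**Figure D3:**
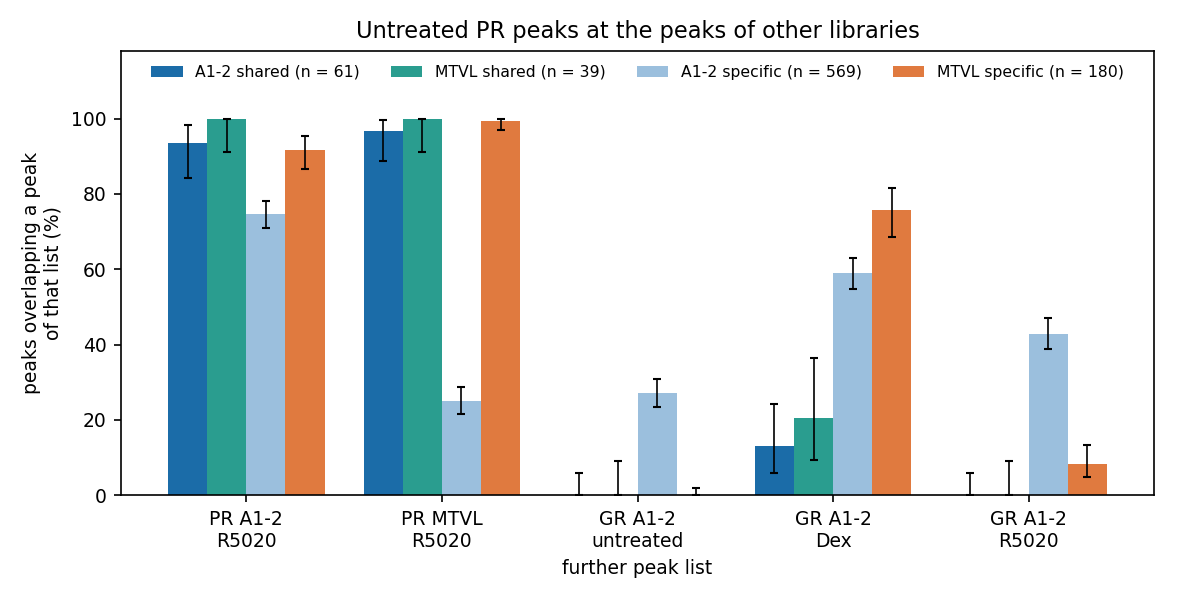
Percent of the peaks of each untreated PR class that overlapped a peak of 5 further libraries (error bars, exact 95% intervals). Shared peaks reach at least 93.4% in both R5020 PR lists with no untreated or R5020 GR peak, and the class rule nearly sets their MTVL R5020 value. A1-2-specific peaks reach only 25% in the MTVL R5020 list, and MTVL-specific peaks reach 75.6% in the GR Dex list.

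MTVL-specific peaks lay mostly at high-scoring R5020 sites of both lines. The MTVL R5020 peak at such a site had a median score percentile of 97.5 in its list, which is the value shared by the 1858 peaks tied at a score of 3100.0, with 163 peaks above them. Of the 179 overlapped sites 143 (79.9%) were in the highest-scoring 10% of that list. Scores of 3100.0 or more were found at 110 of the 180 MTVL-specific peaks (61.1%, 53.6 to 68.3), against 4.69% of the whole MTVL R5020 list. In the A1-2 R5020 list, which played no part in defining MTVL peaks, the median percentile at these sites was 93.7 and 97 of 165 (58.8%) were in the highest 10%. Among the highest 10% of the MTVL R5020 list 97.6% had an A1-2 R5020 peak, above the 91.7% of MTVL-specific untreated peaks.

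The 5 leading MTVL-specific peaks showed this pattern singly. At chr11:1817270-1818537 (1268 bp, score 511.3) the R5020 peaks of both lines scored 3100.0 and the GR Dex peak was at percentile 97.2 of its list. At chr8:69764364-69767383 (score 480.3) the MTVL R5020 peak scored 3100.0 and the A1-2 R5020 peak 1334.6. Both lines scored 3100.0 at chr22:29214091-29216322 (untreated score 422.1) and at chr22:41128317-41129445 (395.7). The last, chr12:116930229-116933854 (361.4), had R5020 scores of 2628.0 in MTVL and 1204.5 in A1-2 cells. All 5 were at a GR Dex peak and none at an untreated GR peak.

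The MTVL-specific peaks without GR Dex ranked lower after R5020 than the 136 with it. The 44 peaks without it had a median percentile of 89.3 in the MTVL R5020 list, against 97.5. Of the 44, 29 (65.9%) had an A1-2 R5020 peak. Without hormone they were close to the 136, with a median score of 135.8 against 144.6 and a median width of 1240.5 bp against 1171 bp. The 15 MTVL-specific peaks without an A1-2 R5020 peak had a median untreated score of 128.1 and none was at a GR Dex peak. Of these, 14 had an MTVL R5020 peak, at a median percentile of 68.4.

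Shared sites ranked lower after R5020. The median percentile of their R5020 peak was 60 (50.9 to 76.4) in the MTVL list and 72.7 (67.9 to 78.8) in the A1-2 list, and 6 of 39 (15.4%) were in the highest 10% of the MTVL list. A1-2-specific peaks that had an MTVL R5020 peak were at a median percentile of 33.6 (27.7 to 40.6) there, and the 71 with R5020 peaks in both lines and no GR peak were at 34.2. In the A1-2 R5020 list the A1-2-specific peaks had a median percentile of 61.4. Of the classes, MTVL-specific peaks thus had the highest median PR rank after R5020, above the sites that both lines held without hormone. Only 0.56% of all MTVL R5020 peaks were at an untreated MTVL peak, so this orders the classes and not the whole list.

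**Figure D4:**
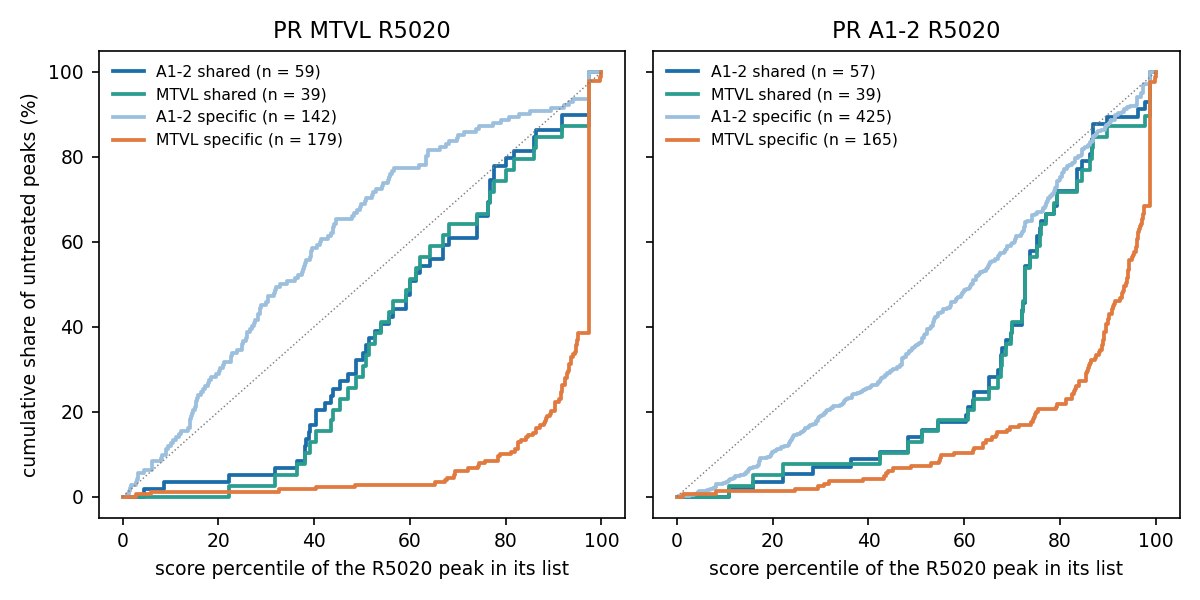
Cumulative share (%) of untreated PR peaks by the score percentile of the R5020 PR peak they overlapped, in the MTVL (left) and A1-2 list (right); the dotted line marks percentiles spread evenly over the list, and the vertical step at 97.5 on the left is the tie at a score of 3100.0. MTVL-specific peaks lie to the right, shared peaks have medians of 60 and 72.7, and A1-2-specific peaks lie above the dotted line on the left with a median of 33.6.

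Among the 39 shared sites, the 8 at a GR Dex peak differed from the other 31. Their R5020 peaks were at a median percentile of 97.5 in the MTVL list, from 81.7 to 97.5, and 6 were in its highest 10%. The 31 without GR Dex were at a median of 54, from 22.2 to 85.9, and 0 were in the highest 10%. A difference of this direction was not particular to shared sites. In the whole MTVL R5020 list 29.5% of peaks were at a GR Dex peak, against 75.4% in its highest-scoring 10%. The 3 lowest A1-2 scores of all 39 sites were among the 8, at chr3:4729028-4729239 (109.1), chr8:116850784-116850945 (100.9) and chr16:10688446-10688740 (108.0). All 3 were in the tie at a score of 3100.0 in both R5020 lists, at percentile 97.5 for MTVL and 98.7 for A1-2. Every shared site without GR Dex had a best A1-2 score of 391 or more.

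Position differed between the classes as well, though not for all parts of them. Chromosomes 1, 5, 6 and 17 held 21 of 39 shared MTVL peaks (53.8%) and 39 of 61 shared A1-2 peaks (63.9%), but 19.4% of MTVL-specific and 18.8% of A1-2-specific peaks. They held 22.9% of the A1-2 and 25.6% of the MTVL R5020 peaks. The A1-2-specific class, with 21.6% of its peaks on chromosome 16 from 34 to 36 Mb, was not uniform. Chromosomes 1, 5, 6 and 17 held 29 of its 71 peaks with R5020 PR peaks in both lines and no GR peak (40.8%). They held 25 of its 69 peaks at none of the 5 lists (36.2%) and 21 of its 154 at an untreated GR peak (13.6%). These 4 chromosomes were chosen after the counts were seen. In the RefSeq gene table of GRCh38.p14 the same chromosomes hold 304 of 443 tRNA genes (68.6%) and 25.9% of protein-coding genes. tRNA genes, which RNA polymerase III transcribes, lie in clusters on a few chromosomes. Over the 23 chromosomes the number of shared MTVL peaks had a rho of 0.698 with the number of tRNA genes and of 0.63 with that of protein-coding genes. For MTVL-specific peaks these were 0.156 and 0.562, and for A1-2-specific peaks 0.648 and 0.652. Chromosomes also differ in length, so these values are a description. No peak was placed on a gene, because the table is of another build than the peaks.

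Several shared sites lay on chromosome 6 from 26 to 29 Mb, an interval of the short arm known for its histone and tRNA gene clusters and chosen after the counts were seen. It held 8 of the 39 shared MTVL peaks and 0 of the 180 MTVL-specific ones, with 9 shared and 28 specific A1-2 peaks. The same interval had 47 A1-2 and 60 MTVL R5020 PR peaks, 10 GR Dex peaks, 0 GR peaks in untreated cells and 0 GR peaks after R5020, and 1 input peak. MTVL-specific peaks were spread over every chromosome but 1, with at most 14 on any. Shared sites were missing from 8 chromosomes.

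**Figure D5:**
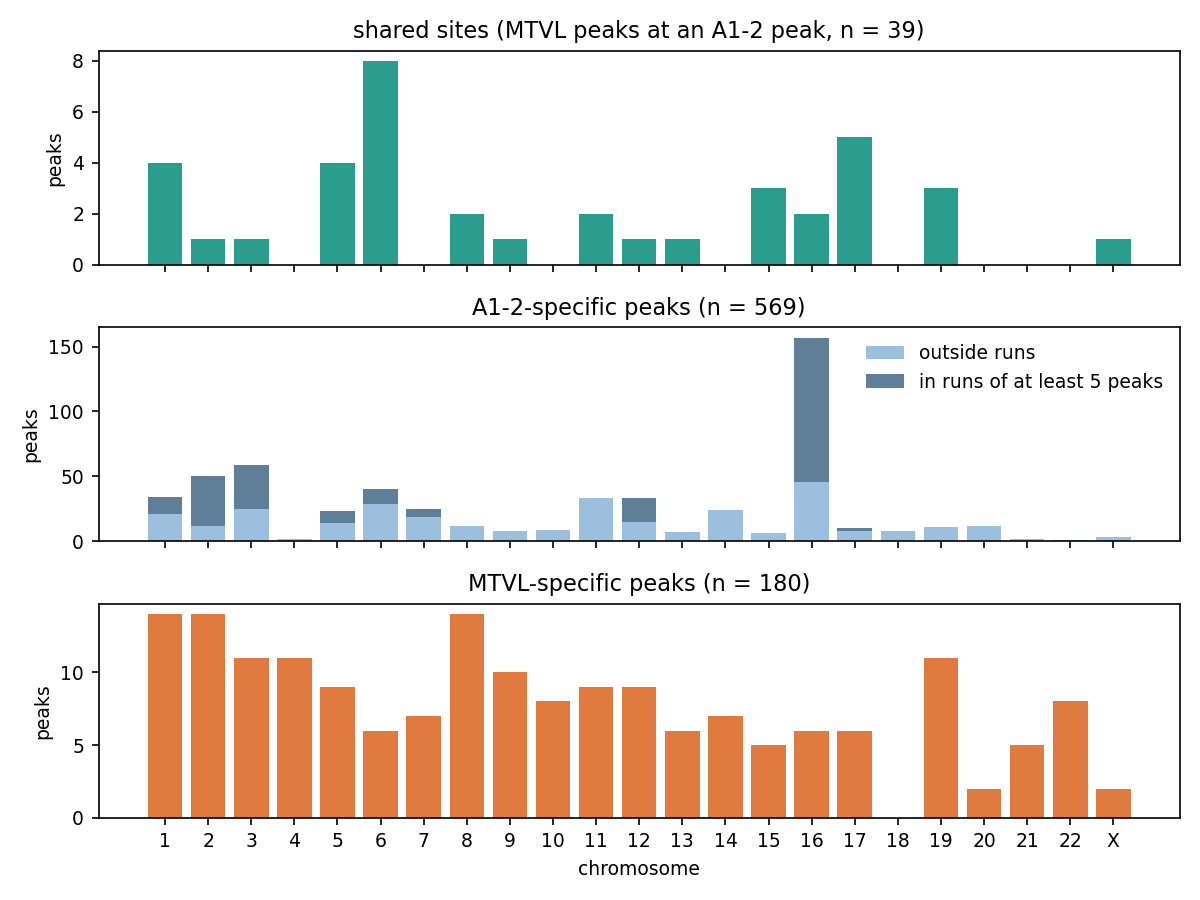
Number of untreated PR peaks on each chromosome among shared sites (39 MTVL peaks, top), A1-2-specific peaks (569, middle, with those in runs of at least 5 close peaks in dark) and MTVL-specific peaks (180, bottom), on separate vertical scales. Chromosome 6 has the most shared sites (8), chromosome 16 has 157 A1-2-specific peaks, and MTVL-specific peaks are spread with at most 14 on a chromosome.

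Close groups of peaks were larger in the A1-2 list than in the shorter MTVL list. Runs, defined as 5 or more peaks each no more than 20 kb from the next, numbered 27 in the A1-2 list and held 257 of its 630 peaks (40.8%). That share was 20.3% among the 231 A1-2 peaks that scored 200 or more, 23.1% with peaks closer than 1 kb merged and 23.3% with gaps of up to 5 kb. The MTVL list had no run, and 20 of its 219 peaks (9.13%) had a neighbour within 20 kb. Its largest groups had 3 peaks, at chr21:36100453-36110173 and chr22:29209422-29219799, all MTVL-specific. It also had 7 pairs, among them the 2 shared peaks at chr11:59317530-59329090. At a gap of 1 kb or less 260 A1-2 peaks (41.3%) had a neighbour and 0 MTVL peaks did. This contrast depends on peak width, since no MTVL peak was narrower than 848 bp. Of the 39 shared MTVL peaks, 16 held 2 or more A1-2 peaks, which count as neighbours in the A1-2 list only.

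The A1-2 runs were split by whether they held a shared peak. Without one, 22 runs with 226 peaks held no MTVL untreated peak, which the split itself largely sets. GR lists of the same A1-2 cells had 139 untreated and 192 R5020 peaks in those runs. No input peak lay in any run, but A1-2 peaks at an input peak were removed before runs were formed. With those peaks kept, 269 of 688 A1-2 peaks (39.1%) were in runs. In these 22 runs 38.1% of the PR peaks overlapped an untreated GR peak and 3.54% an MTVL R5020 peak. The other 5 runs had 31 A1-2 peaks, 15 of them shared, with 9 MTVL untreated peaks, 0 untreated GR peaks, 0 R5020 GR peaks and 2 GR Dex peaks. In those 5 runs 74.2% of the PR peaks overlapped an MTVL R5020 peak, a share that the split itself raises because shared peaks nearly all have one. Among their 16 A1-2-specific peaks it was 9 (56.2%). Runs and classes are counted on the same A1-2 list, so these counts describe that 1 library.

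The 3 longest runs by number of peaks had 30 peaks at chr16:34757296-34833794, 27 at chr2:99524944-99555609 and 21 at chr3:60473288-60492098. None of the 3 had a shared peak. The chromosome 16 run had 15 untreated GR peaks and 30 GR peaks after R5020, and 28 of its 30 PR peaks were at an A1-2 R5020 PR peak but only 2 at an MTVL one. In the chromosome 3 run 18 of 21 peaks were at an A1-2 R5020 peak and 0 at an MTVL one. Chromosome 16 had 11 of the 27 runs and 157 A1-2-specific peaks (27.6% of the class). Of these, 123 lay from 34 to 36 Mb, near the centromere, where neither line had a shared peak and MTVL cells had 0 specific peaks.

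The 5 runs with shared peaks lay on chromosomes 5, 6 and 17. The run at chr5:180600614-180649639 had 9 A1-2 peaks, 6 of them shared, at 3 MTVL peaks. At chr6:26521295-26572180 there were 7 A1-2 peaks, 4 of them shared, at 3 MTVL peaks, and at chr17:8022421-8042358 there were 5, with 3 shared in 1 MTVL peak. The runs at chr6:26286625-26330744 and chr6:28908684-28921237 had 5 peaks and 1 shared peak each. Peaks in these runs were stronger than in most others, with median scores from 252.1 to 416.6. In the 3 runs with the most peaks the medians were 140.3, 129.9 and 176.7. The split itself raises the former medians, because shared A1-2 peaks in runs had a median score of 398.3 and specific ones 133.3. A run without a shared peak, at chr5:142661262-142693745, had a median of 399.5.

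A1-2-specific peaks inside and outside runs were also set beside the MTVL R5020 list. Inside runs 17 of 242 A1-2-specific peaks (7.02%) were at an MTVL R5020 peak, and outside runs 125 of 327 (38.2%). The share outside runs was still under the 82.7% of all A1-2 R5020 peaks, which are wider and were called with hormone. The A1-2-specific peaks at an MTVL R5020 peak had a median width of 321 bp and a median score of 204.4, and the 427 without one had 201 bp and 130.0. Among peaks without an MTVL R5020 peak, 225 of 427 (52.7%) were in runs.

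The strongest A1-2-specific peaks were of both sorts. The first of the list, chr5:139930069-139930832 (764 bp, score 2866.1), coincided with an untreated GR peak at percentile 99.7 of its list and with an A1-2 R5020 PR peak, and had no MTVL peak of any kind. So did chr5:142661446-142661656 (211 bp, 1872.3), with untreated GR at percentile 99.5, and chr5:139936663-139937044 (382 bp, 1107.8), at percentile 99. The other two, chr11:75946334-75947141 (1690.7) and chr16:14379569-14380189 (1201.6), had no untreated GR peak and were at R5020 PR peaks of both lines, at percentiles of 62 and 44.1 in the MTVL list.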

How the data were processed

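Chromatin of untreated A1-2 and MTVL cells was precipitated with a PR antibody, 1 library each, per the labels' protocols. Tools listed in the submitters' processing notes are MACS 1.4.2, Bowtie 1.1.1 and bedtools, with the hg19 build. Settings, control library and depth: not given in the sources used here. The deposited lists give 1 score per peak, read here as -10 log10 p (threshold 1e-10 in the deposited names). Of 693 A1-2 peaks, 58 at an A1-2 input peak and 5 on chrM or chrY were left out, and 2 of 221 MTVL peaks at input. No MTVL input list was used here. Overlap needed 1 bp. Shares have Clopper-Pearson intervals and medians order-statistic intervals (Python 3.11.15, pandas 2.3.3, scipy 1.17.1), with overlap code tested on simulated lists. Positions count from 1. A peak at several peaks of a list took the highest score.

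Members, classes and lists were chosen with earlier results of these data known. The rule for named peaks was the 5 of highest score in each of 4 classes with their partners, the 3 runs with most peaks per list, and the 3 widest and narrowest shared sites. Assigning genes and printing sequences were planned only for an hg19 annotation and genome, so 0 genes were placed and no sequence is shown.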

Additional observations from a re-analysis of the deposited data

How the results depend on the processing

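For 8 results, values were recomputed under 51 alternatives, 43 planned and 8 chosen after seeing the data. In 25 the value stayed in the 95% interval of the main one, in 26 it left it, and 0 changed sign. Only the score difference could have changed sign, because shares and ratios are never negative. The share of MTVL peaks that were shared (17.8%) and the score difference between shared and specific A1-2 peaks (434) stayed in their intervals under all alternatives run for them. The share of A1-2 peaks that were shared (9.68%) was 4.76% with midpoints within 200 bp, 25.6% with lists of equal length, 12.3% without runs and 12.8% without peaks at untreated GR peaks. The ratio of median widths, MTVL over A1-2 (5.02), was 3.66 at scores of at least 200, 3.28 with lists of equal length, 4.07 with peaks closer than 1 kb merged, 4.48 without runs and 3.59 over shared peaks. The share of A1-2 peaks in runs (40.8%) was 20.3% at scores of at least 200, 23.1% with peaks merged, 56.5% for runs of at least 3 peaks, 45.6% and 23.3% with gaps of 50 and 5 kb, and 29.8% without chromosome 16 from 34 to 36 Mb. A1-2-specific peaks at an MTVL R5020 peak (25%) were 35.6% at scores of at least 200, 18.5% by midpoints, 30.6% merged, 38.2% without runs and 31.4% without that stretch of chromosome 16. A1-2-specific peaks at an A1-2 R5020 peak (74.7%) were 69.2% at scores of at least 200, 42.2% by midpoints, 68.5% without runs and 68.7% without peaks at untreated GR peaks. MTVL-specific peaks at an A1-2 R5020 peak (91.7%) were 95.7% and 69.3% under the first pair of these settings. The cause of each shift was not tested beyond what a setting removes by construction. With 1 library per condition, biological spread is unknown, and unknown depth limits what a missing peak shows. No paired analysis was possible because each group has 1 library and no result comes from a test.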
